A study of Mus musculus with 24 samples.

Results

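Through 24 spinal cord RiboTag libraries, 10 genes were followed that regulate the kinase complex mTORC1 or report amino acid supply to it. They are Mtor, Rptor, Tsc2, Eif4ebp1, Sesn1, Sesn2, Sesn3, Ddit4, Gatsl2 and Gatsl3. These genes were named by symbol for their role in the pathway, out of 38924 genes listed in every file, and the files' Gatsl2 and Gatsl3 are the genes now called Castor2 and Castor1. All 10 were found, each under 1 symbol and 1 identifier.

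The study asked how the Gars C201R allele, a dominant change in the glycyl-tRNA synthetase gene, alters ribosome-associated mRNA of cholinergic cells in the spinal cord. RiboTag mice carry an Rpl22 allele that gains a haemagglutinin tag where Cre recombinase is present, and an antibody to the tag then pulls down ribosomes with their mRNA. The 4 groups of 6 mice, all 8 weeks old and of strain background B6.CgxB6.129, each gave 1 library per mouse. The C201R group with Cre is Rpl+/-;Chat+/-;C201R+/-, and its wild-type counterpart with Cre is Rpl+/-;Chat+/-;C201R+/+. The controls without Cre are Rpl+/-;Chat+/+;C201R+/- and Rpl+/-;Chat+/+;C201R+/+. All 4 groups thus carry 1 copy of the RiboTag Rpl22 allele, which stays untagged in the groups without Cre, and the wild-type mice are wild type at Gars alone. Cre came from ChAT-Cre, which marks cholinergic cells in general and not motor neurons alone, and the pulldowns without Cre measured the background. In such bulk samples, fewer cells of a type and less of a transcript per cell cannot be told apart.

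mTORC1 is a protein kinase complex, built on the kinase Mtor and the scaffold Rptor, that promotes translation and growth when amino acids, energy and growth factors suffice. The TSC complex, which contains Tsc2, switches off the small GTPase Rheb that activates the kinase, and the stress-induced protein Ddit4 (REDD1) acts through that complex. Amino acids act through the Rag GTPases at the lysosome. Sestrins and Castor1 bind GATOR2. Sesn2 releases it when leucine binds, and Castor1 when arginine binds. Eif4ebp1 is a translation repressor that mTORC1 phosphorylates.

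Libraries held 8.90 to 28.3 M expected counts, the read estimates per gene that were deposited. Levels are given as CPM, the count divided by the library total in M, after TMM scaling of the totals (edgeR's trimmed mean of M-values) over all 24 libraries. In pulldowns with Cre, the summed level of 6 cholinergic and motor neuron markers was 836 to 1193 CPM in C201R and 760 to 1419 CPM in wild type, against 41.7 to 56.5 and 49.3 to 232 CPM without Cre. None of the 6 was at 0 in every library of any group. Among them, 1 gene, Chodl, was lower in C201R with Cre (log2 change -1.02 ± 0.14, edgeR adjusted p = 0.000635). The summed level of 6 oligodendrocyte markers was 547 to 808 CPM in C201R and 481 to 1068 CPM in wild type with Cre, and between 4565 and 8415 CPM without it. Markers of astrocytes, microglia, endothelial cells and other spinal neurons held 0 called genes between the genotypes with Cre, as did those of oligodendrocytes. Only 2 of the 6 microglia markers and 5 of the 6 for other spinal neurons had enough counts to be tested there. Chat had 49.9 to 116 CPM in C201R and 51.1 to 61.9 CPM in wild type with Cre, and at most 8.89 CPM without it. Rpl22, the tagged gene, had 17.8 to 33.6 CPM and 18.3 to 26.7 CPM with Cre. Gars itself ranged with Cre from 143 to 205 CPM in C201R and from 80.2 to 106 CPM in wild type. The log2 change of Gars was 0.80 ± 0.12 (edgeR adjusted p = 0.00204), and the call was lost with library totals (0.54, adjusted p = 0.486) and with the mouse number prefix as a block (0.71, adjusted p = 0.0547). A substitution need not alter a transcript's level, so Gars levels do not check the genotype labels. Gm26924, a predicted gene that overlaps ribosomal RNA sequence, took 8.01% to 43.3% of counts in the C201R pulldowns with Cre and 7.45% to 30.8% in their wild-type counterparts, against at most 7.60% without Cre. Mitochondrial transcripts took 1.24% to 17.1% with Cre and 35.2% to 55.5% without it. Because of these differences, CPM compares transcripts relative to the bulk of other genes and not amounts of RNA pulled down.

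The members differed widely in level. Per kb of effective length, the median level in wild type with Cre was highest for Sesn3, at 21.3 CPM per kb. Rptor, Mtor, Ddit4, Sesn1, Gatsl2 and Tsc2 followed at medians of 6.10, 5.53, 5.20, 5.13, 4.98 and 3.95 CPM per kb, with ranges that overlapped from each gene to the next. Sesn2 was well below them at 1.35 CPM per kb, and its highest wild-type library (1.64) lay below the lowest of Tsc2 (3.09). Eif4ebp1 (0.71) and Gatsl3 (0.40) were lowest. In C201R with Cre the median of Sesn2 was 3.23 CPM per kb, above those of Gatsl2 (3.15) and Tsc2 (3.06), and its range of 1.76 to 4.28 overlapped both. Sesn3 again had the highest median there, at 15.9 CPM per kb, and Gatsl3 the lowest, at 0.27.

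**Figure D1:**
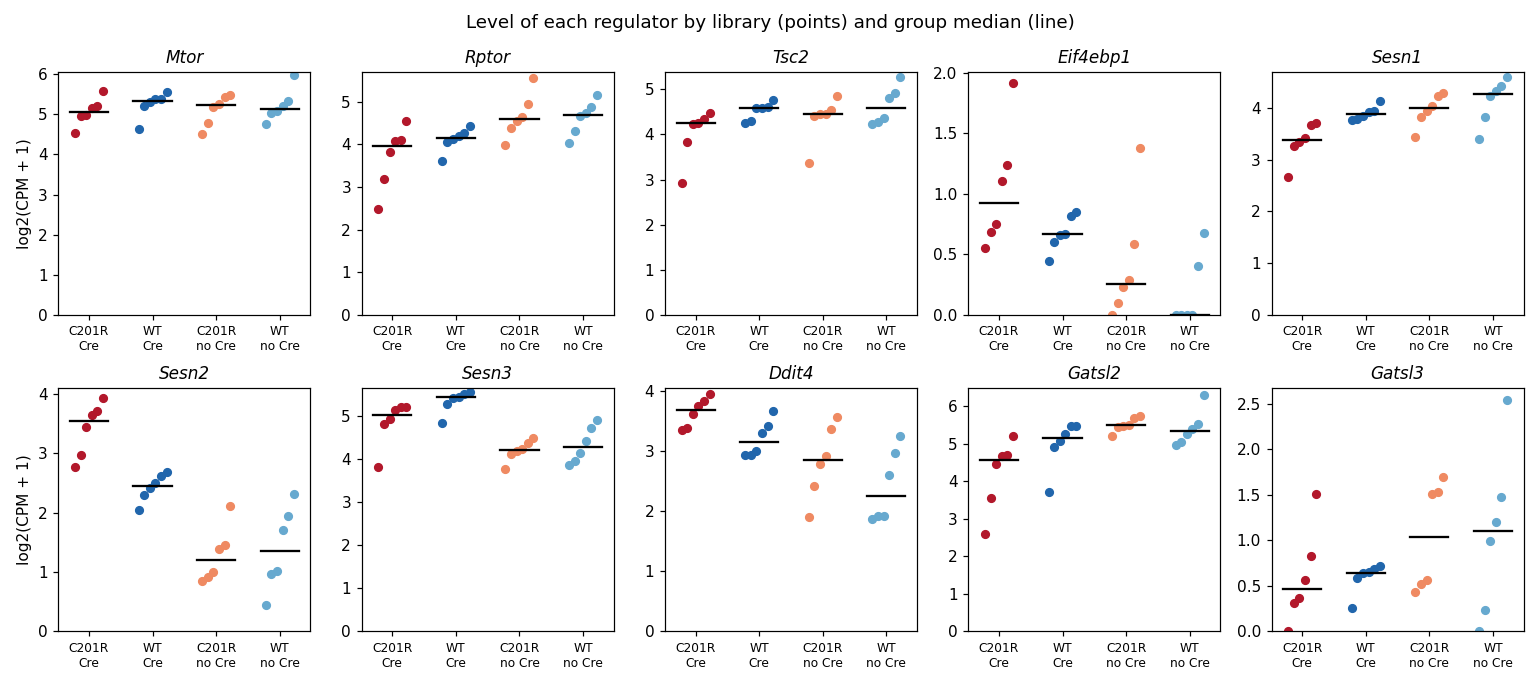
Level of each of the 10 genes in every library as log2(CPM + 1), with the 6 libraries of a group as points sorted by value and the group median as a line. In the Sesn2 panel the 6 C201R libraries with Cre (5.85 to 14.2 CPM) lie above all 18 others, while for Mtor the 4 groups overlap.

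Between the genotypes with Cre, Sesn2 was the 1 gene of the 10 that passed the test, and it was higher in C201R. edgeR's quasi-likelihood F test called 601 of 14634 genes in this comparison at a Benjamini-Hochberg adjusted p under 0.05, which is 4.11% of the genes tested. Called genes higher in C201R were 2.29% of the total, against 1 of the 10 members, and called genes lower in C201R were 1.82%, against 0 of the 10. The median log2 change of the 10 was -0.18, and that of all genes tested was -0.0056. The CPM ranges of the genotypes did not overlap for 2 of the 10, Sesn2 and Sesn1, and for 2.97% of all genes tested.

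The sestrins are stress-responsive proteins that bind GATOR2 and hold mTORC1 back, in the case of Sesn2 when leucine is scarce. Sesn2 was higher in C201R with Cre while the other 2 sestrin genes had negative changes that were not called, so the sequence before the start site of each is shown, as RefSeq gives it for build GRCm38.p6. Each is 250 bases long and reads 5′ to 3′ on the gene's strand, up to the base before the start. Capitals mark the letters CCAAT or their reverse complement ATTGG. Sesn2 lies on the minus strand and its window is chr4:132510457-132510706. Sesn1 and Sesn3 lie on the plus strand, with windows at chr10:41810324-41810573 and chr10:41887189-41887438 for the 2 starts of Sesn1 and at chr9:14276051-14276300 for Sesn3.
Sesn2 promoter: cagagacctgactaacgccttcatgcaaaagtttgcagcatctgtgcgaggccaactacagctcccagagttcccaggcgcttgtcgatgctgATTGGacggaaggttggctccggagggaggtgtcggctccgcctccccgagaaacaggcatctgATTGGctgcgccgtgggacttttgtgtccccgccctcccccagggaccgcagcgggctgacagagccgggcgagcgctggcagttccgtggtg
Sesn1 first promoter: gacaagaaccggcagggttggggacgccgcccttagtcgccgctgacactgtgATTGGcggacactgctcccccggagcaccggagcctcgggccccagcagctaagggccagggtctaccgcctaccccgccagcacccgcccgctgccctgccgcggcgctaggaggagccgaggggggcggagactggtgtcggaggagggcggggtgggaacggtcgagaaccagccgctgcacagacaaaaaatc
Sesn1 second promoter: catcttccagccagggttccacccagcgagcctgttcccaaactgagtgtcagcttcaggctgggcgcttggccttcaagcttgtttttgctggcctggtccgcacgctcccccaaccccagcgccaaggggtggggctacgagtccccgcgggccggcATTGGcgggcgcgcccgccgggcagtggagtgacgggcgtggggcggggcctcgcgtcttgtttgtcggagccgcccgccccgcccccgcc
Sesn3 promoter: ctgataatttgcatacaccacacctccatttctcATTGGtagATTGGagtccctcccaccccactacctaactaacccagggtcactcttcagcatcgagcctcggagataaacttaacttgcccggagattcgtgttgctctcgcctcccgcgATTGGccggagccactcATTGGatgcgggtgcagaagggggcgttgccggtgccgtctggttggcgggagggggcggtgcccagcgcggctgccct
The Sesn2 window held 2 such matches, each Sesn1 window 1 and the Sesn3 window 4. CCAAT was searched on both strands after the sequences had been seen, and 33.8% of the 32817 RefSeq promoter windows of this length hold it. The letters TGATGNAA, which ATF4 and C/EBP proteins bind as a pair, were in none of the windows of the 9 members with an entry, and in 3.45% of all windows. The FoxO letters GTAAACA were in none either, and in 3.16% of all windows. Both were searched on both strands, as exact letters within the 250 bases, so variants and sites elsewhere would be missed. Of the other members, Mtor had 4 CCAAT matches, Ddit4 2, Gatsl2 1, and Rptor, Tsc2 and Gatsl3 0.

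Sesn2 was higher in C201R with Cre. Its level was 5.85 CPM in the lowest C201R library, 10.7 CPM at the median and 14.2 CPM in the highest, and 3.13, 4.48 and 5.43 CPM in wild type. On this scale the lowest C201R library exceeded the highest wild-type one, so the groups did not overlap. The difference was 1.22 ± 0.23 on the log2 scale (SE), a 2.33-fold difference (edgeR adjusted p = 0.00871). On the deposited TPM scale the groups overlapped, at 1.15 to 12.2 TPM in C201R and 0.96 to 4.17 TPM in wild type. TPM scales each library to its own total, with no TMM factor. With library totals in place of TMM, a setting that shifts the median log2 change of all tested genes from -0.0056 to -0.26 and the called genes from 335 higher and 266 lower to 24 and 8, the change of Sesn2 was 0.94 and was not called (adjusted p = 0.413). It stayed positive and was called in the other 21 of 22 alternative fits, in which its adjusted p was at most 0.0343.

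The lower Sesn2 levels within C201R went with a high share of Gm26924. The C201R libraries with 32.9%, 36.9% and 43.3% of counts in Gm26924 had 9.90, 5.85 and 6.81 CPM of Sesn2, and the other 3, at 8.01%, 10.5% and 20.9%, had 14.2, 12.1 and 11.6 CPM. The same split separates the library series, 2 runs of library numbers whose meaning the labels do not give. Within series 1 the C201R libraries ranged from 5.85 to 9.90 CPM (n = 3) and the wild-type ones from 3.13 to 5.43 CPM (n = 2). Within series 2 they ranged from 11.6 to 14.2 CPM (n = 3) and from 3.92 to 5.11 CPM (n = 4). In CPM the genotypes were thus apart within both series. In deposited TPM they overlapped within series 1, at 1.15, 2.02 and 4.21 in C201R and 0.96 and 4.17 in wild type. In a fit with a further covariate, the Gm26924 share, the Sesn2 change was 1.55 (adjusted p = 0.00469), and in series 2 alone it was 1.50 (adjusted p = 7.4e-05).

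**Figure D2:**
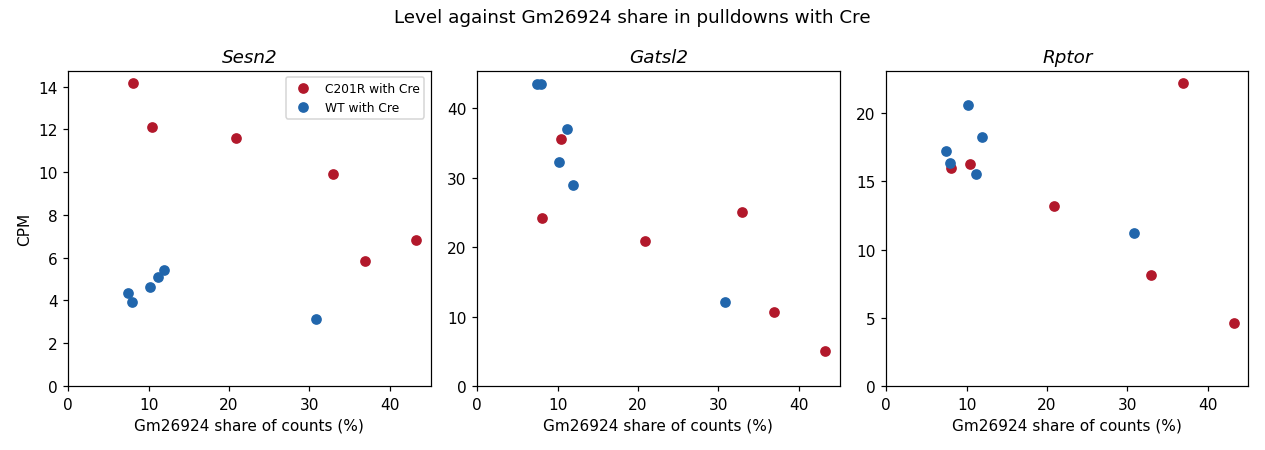
Level in CPM of Sesn2, Gatsl2 and Rptor (vertical axes) against the percentage of counts in Gm26924 (horizontal axes) in the 12 libraries with Cre. Sesn2 points of C201R lie above those of wild type at every share, whereas the lowest Gatsl2 levels, 4.97 and 10.7 CPM, belong to the libraries with the highest shares, 43.3% and 36.9%.

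Sesn1, a sestrin known as a p53 and FoxO target, had a negative change that did not pass the test. Its CPM was 5.33 in the lowest C201R library, 9.40 at the median and 12.2 in the highest, against 12.6, 13.8 and 16.7 in wild type. In CPM all 6 C201R libraries lay below all 6 wild-type ones, by a narrow margin. In deposited TPM the groups overlapped, at 1.89 to 12.4 in C201R and 5.78 to 16.8 in wild type. The log2 change of Sesn1 was -0.53 ± 0.19 (edgeR adjusted p = 0.145). In series 2 alone the values were 9.66 to 12.2 CPM and 12.6 to 16.7 CPM, and the change was -0.32 (adjusted p = 0.245). None of the 22 alternatives called Sesn1, with adjusted p-values from 0.0674 to 0.502.

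Sesn3, the most abundant sestrin here, had 13.1 CPM in the lowest C201R library, 31.9 CPM at the median and 36.4 CPM in the highest, and 27.8, 42.6 and 46.4 CPM in wild type. The ranges overlapped only through wild-type mouse 14701-9, at 27.8 CPM, since the next wild-type library had 37.8 CPM. The low end of C201R is also a single library. The log2 change of -0.37 ± 0.17 did not pass the test (edgeR adjusted p = 0.254). In series 2 alone the values were 34.3 to 36.4 CPM in C201R and 42.2 to 46.4 CPM in wild type. There the change was -0.30 (adjusted p = 0.107). None of the 22 alternatives called Sesn3, with adjusted p-values from 0.0619 to 0.878.

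Within the sestrin family the make-up differed between the genotypes with Cre, a comparison that needs no scaling between libraries. Sesn2 made up 8.88% to 17.2% of the summed sestrin level per length in C201R with Cre, with a median of 14.9%, and 3.85% to 6.42% in the wild-type counterparts, with a median of 4.83%. The groups did not overlap. The ratio of Sesn2 to Sesn1 per length was 0.51 to 1.37 in C201R, with a median of 0.81, and 0.17 to 0.33 in wild type, with a median of 0.28. On the log2 scale the ratio was -0.27 ± 0.55 (SD, n = 6) in C201R and -2.01 ± 0.39 in wild type. Since both genes were chosen with their changes in view, this ratio is given with no test. Sesn3 held the largest median share in all 4 groups, from 58.7% in wild type without Cre to 75.7% in wild type with Cre.

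**Figure D3:**
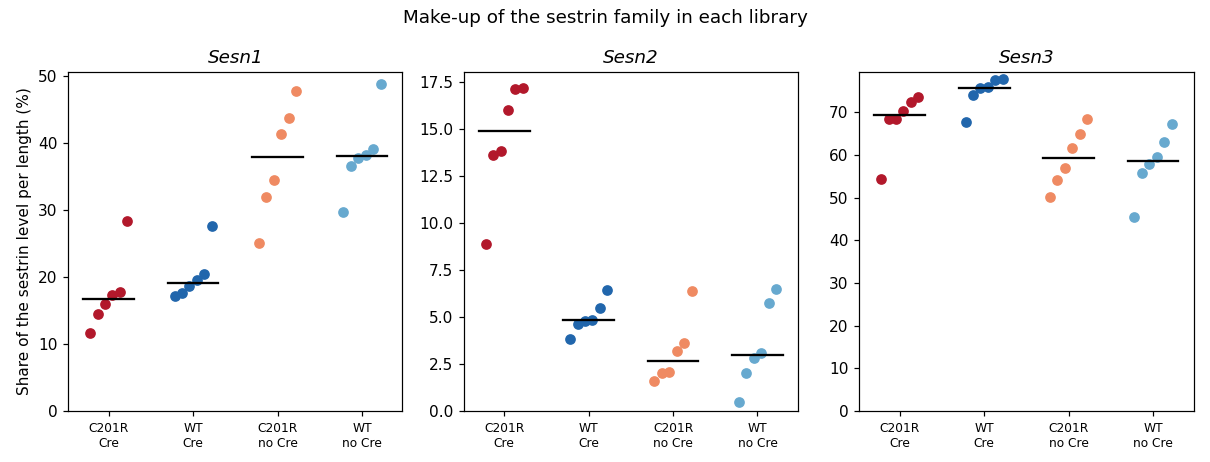
Share of each sestrin in the summed sestrin level per kb of effective length, in percent, for each library (points, sorted by value) with the group median as a line. The Sesn2 share is 8.88% to 17.2% in C201R with Cre and at most 6.50% in any library of the other 3 groups.

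Neither gene of the kinase complex itself was called between the genotypes. Mtor, the kinase, had 22.4 CPM in the lowest C201R library, 32.7 CPM at the median and 47.3 CPM in the highest, against 23.9, 39.6 and 46.1 CPM in wild type. The groups overlapped almost fully, and the log2 change was -0.12 ± 0.19 (edgeR adjusted p = 0.794). The highest of these libraries depends on scaling, since mouse 14003-1 had 47.3 CPM from 257 counts but a deposited TPM of 4.96, below the C201R median of 6.36 TPM. Rptor, the scaffold that brings substrates to the kinase, had 4.60 CPM in the lowest C201R library, 14.6 CPM at the median and 22.2 CPM in the highest, against 11.2, 16.8 and 20.6 CPM in wild type. C201R libraries lay both below and above the wild-type range. Its log2 change was -0.24 ± 0.28 (adjusted p = 0.712), and 0.025 once the Gm26924 share entered as a covariate.

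The 2 brakes on Rheb had changes of opposite sign, and neither passed the test. Tsc2, the GTPase-activating subunit of the TSC complex, had 6.62 CPM in the lowest C201R library, 18.0 CPM at the median and 21.3 CPM in the highest, against 18.1, 23.1 and 26.0 CPM in wild type. The upper C201R libraries overlapped wild type, and the log2 change was -0.41 ± 0.20 (edgeR adjusted p = 0.295). For Ddit4 the values were 9.20, 11.8 and 14.3 CPM in C201R and 6.60, 7.92 and 11.7 CPM in wild type. The ranges overlapped, with wild-type mice 14701-9 and 14002-6, at 11.7 and 9.62 CPM, above the lowest C201R libraries. The log2 change was 0.48 ± 0.20 (adjusted p = 0.209).

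Ddit4 is the member whose call depended most on the libraries used. Mice 14003-1 and 14701-9 had the highest mitochondrial shares among libraries with Cre, 15.8% and 17.1%. Without both, the change of Ddit4 was 0.65 and it was called (adjusted p = 0.0219). It was also called in series 2 alone (0.76, adjusted p = 0.0113), where C201R ranged from 11.2 to 13.2 CPM and wild type from 6.60 to 8.86 CPM, and by limma-voom with quality weights (0.69, adjusted p = 0.00533). The other 19 of 22 alternatives left it uncalled.

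The arginine-sensing pair and the translation repressor were not called either. Gatsl2 (Castor2), the paralog of the arginine sensor, had 4.97 CPM in the lowest C201R library, 22.6 CPM at the median and 35.5 CPM in the highest, against 12.1, 34.6 and 43.5 CPM in wild type. Both genotypes had 1 library or more far below the rest, and the ranges overlapped. Its log2 change was -0.54 ± 0.30 (edgeR adjusted p = 0.362) and turned to 0.0064 once the Gm26924 share entered as a covariate. Gatsl3 (Castor1), the arginine sensor itself, was scarce, with 0.00 CPM in the lowest C201R library, 0.38 CPM at the median and 1.85 CPM in the highest, against 0.19, 0.56 and 0.64 CPM in wild type. Its log2 change was 0.20 ± 0.67 (adjusted p = 0.914). The library at 0 counts allows up to 0.55 CPM, from 3 counts, which covers counting error only.

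Eif4ebp1 had 0.46 CPM in the lowest C201R library, 0.92 CPM at the median and 2.76 CPM in the highest, against 0.36, 0.58 and 0.81 CPM in wild type. It rested on 262 counts over all 24 libraries and at most 38 in 1 library. At 0.78 ± 0.53 on the log2 scale the change did not pass the test (edgeR adjusted p = 0.471), which does not show that the levels were equal. Among the 3 repressors of this family, Eif4ebp2 made up most of the level per length, with a median share with Cre of 86.0% in C201R and 92.2% in wild type.

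**Figure D4:**
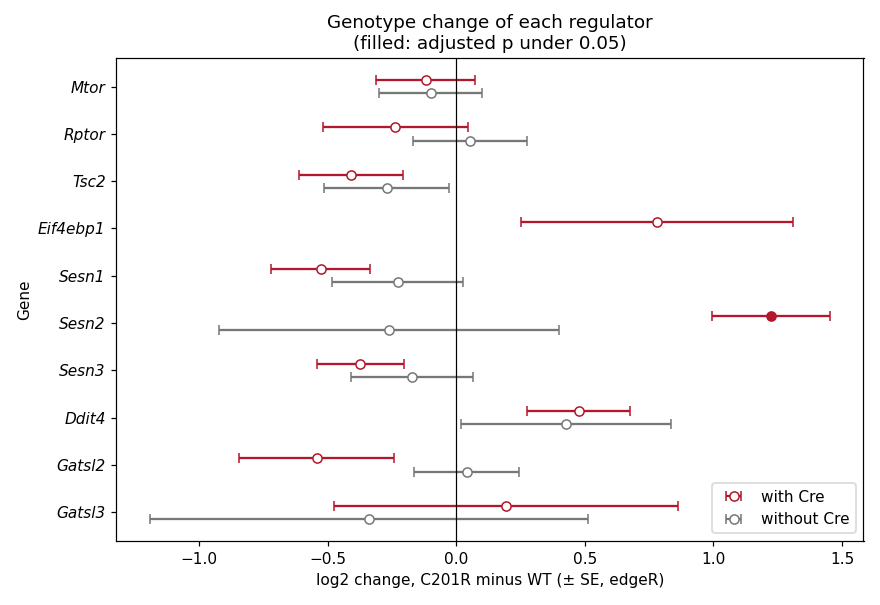
Log2 change of each gene, C201R minus wild type, with its standard error from edgeR, in pulldowns with Cre (red) and without Cre (grey). Only the Sesn2 change with Cre, 1.22, is filled (adjusted p under 0.05), and Eif4ebp1 without Cre was not tested.

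Without Cre no member was called between the genotypes. All members but Eif4ebp1, which did not pass the filter on low counts, were tested, and 0 of these 9 passed. The background was likewise 0.0% of 14400 genes for edgeR. At an unadjusted p under 0.05 there were 455 genes, and of the other tools DESeq2 called 2 genes and limma-voom 1. Sesn2 had 0.80 CPM in the lowest C201R library without Cre, 1.31 CPM at the median and 3.32 CPM in the highest, against 0.35, 1.63 and 3.96 CPM in wild type. These ranges overlapped, and the log2 change was -0.26 ± 0.66 (edgeR adjusted p = 1.0). For the other 8 tested members the log2 change lay between -0.34 (Gatsl3) and 0.43 (Ddit4).

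The interaction fit compared the genotype change in pulldowns with Cre against the one in pulldowns without Cre. It called 21 of 16109 genes, or 0.13%, and 0 of the 10 members. Among the members, the interaction of Sesn2 was the furthest from 0, at 1.49 ± 0.61 on the log2 scale (edgeR adjusted p = 0.452). It was positive in all 33 alternatives, from 1.13 to 1.85, and called in none of them. The genotype change of Sesn2 with Cre is therefore not shown to differ from that without Cre.

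The members were also compared between pulldowns with and without Cre within each genotype, which asks how far each transcript follows the cholinergic cells. Each shares 6 of its libraries with the genotype comparison above, so the values are only set side by side. In wild type, 1 of 9 tested members was higher with Cre and 1 was lower, against 27.7% and 32.8% of all 14264 genes tested. In C201R, 3 of 9 were higher and 2 lower, against 30.5% and 26.3% of 14335 genes. The 2 comparisons left out Eif4ebp1 and Gatsl3, respectively, through the filter on low counts. Scaling by library totals in place of TMM shifted the median log2 change of all tested genes from -0.097 to 0.84 in wild type and from 0.065 to 0.64 in C201R. The split of called genes then moved from 3955 higher and 4682 lower to 6881 and 2441 in wild type, and from 4370 and 3775 to 5657 and 2284 in C201R.

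Sesn3 was higher with Cre in both genotypes. Without Cre its lowest, median and highest libraries had 13.6, 18.6 and 29.0 CPM in wild type and 12.8, 17.6 and 21.4 CPM in C201R, below the medians with Cre of 42.6 and 31.9 CPM. In both genotypes a low library with Cre overlapped the range without Cre. The log2 change was 0.93 ± 0.19 in wild type (edgeR adjusted p = 0.000495) and 0.88 ± 0.23 in C201R (adjusted p = 0.00393). Sesn3 was called in all 21 alternatives in wild type and in 20 of 21 in C201R, the exception being the mouse number prefix as a block (0.75, adjusted p = 0.0816).

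Sesn2 was higher with Cre in C201R by 2.96 ± 0.39 on the log2 scale, a 7.79-fold difference (edgeR adjusted p = 6.67e-06). Its 6 libraries with Cre, from 5.85 CPM up, lay above all 6 without Cre, which reached 3.32 CPM. In wild type the log2 change was 1.03 ± 0.49 and was not called (adjusted p = 0.0793). The wild-type ranges, 3.13 to 5.43 CPM with Cre and 0.35 to 3.96 CPM without, overlapped. It was called in 5 of the 21 wild-type alternatives, with library totals, DESeq2 and limma-voom and in the fits without wild-type mouse 14702-1 (1.44, adjusted p = 0.021) and without mouse 14701-9 (1.15, adjusted p = 0.0487). Sesn1 was called in neither genotype, at -0.47 ± 0.22 in wild type and -0.58 ± 0.27 in C201R (adjusted p = 0.0773 and 0.0776). It was called in 1 of the 21 wild-type alternatives, without mouse 14702-5 (-0.56, adjusted p = 0.0317), and in 5 of the 21 C201R ones. The latter were RLE scaling (-0.76, adjusted p = 0.0248), DESeq2 (adjusted p = 0.0168) and the fits without mouse 14003-1, 14003-3 or 14702-8 (adjusted p of 0.0374 to 0.0477). Without Cre it had 9.57, 18.4 and 23.3 CPM in wild type and 9.80, 15.0 and 18.6 CPM in C201R at the lowest, median and highest, overlapping the ranges with Cre.

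Ddit4 was higher with Cre in C201R, from 2.72, 6.18 and 10.7 CPM without Cre to 9.20, 11.8 and 14.3 CPM with it (lowest, median, highest). The ranges overlapped. The log2 change of 0.81 ± 0.33 passed the test by little (edgeR adjusted p = 0.0407) and was called in 9 of 21 alternatives. Leaving out any library other than those of mice 14003-1, 14003-2 and 14004-7 ended the call, with adjusted p-values of up to 0.125. In wild type, with 2.64, 3.89 and 8.49 CPM without Cre, the change was 0.57 ± 0.33 (adjusted p = 0.145).

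Rptor was lower with Cre in both genotypes. Without Cre its lowest, median and highest libraries had 15.4, 25.0 and 34.5 CPM in wild type and 14.8, 23.2 and 45.8 CPM in C201R, above the medians with Cre of 16.8 and 14.6 CPM. The ranges overlapped in both genotypes. Its log2 change was -0.74 ± 0.21 in wild type (edgeR adjusted p = 0.00718) and -0.95 ± 0.34 in C201R (adjusted p = 0.0225). The sign turned in wild type with library totals (0.20) and in C201R once the Gm26924 share entered as a covariate (0.052 ± 0.55). Without mouse 14701-1 the wild-type call was lost (-0.52, adjusted p = 0.065), and without mouse 14003-2 the C201R call was lost (-0.60, adjusted p = 0.215). The wild-type call was also lost with the Gm26924 covariate (-0.31, adjusted p = 0.296) and without a filter (-0.54, adjusted p = 0.0759). In C201R it was also lost with the mouse number prefix as a block (-0.71, adjusted p = 0.221), with library totals (-0.32, adjusted p = 0.527) and in series 2 alone (-0.60, adjusted p = 0.0508).

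Gatsl2 was lower with Cre in C201R, where all 6 libraries without Cre (36.0, 43.9 and 52.7 CPM at the lowest, median and highest) lay above the 6 with Cre. The log2 change was -0.93 ± 0.29 (edgeR adjusted p = 0.0112), and it turned to 0.026 with that covariate and was -0.29 with library totals (adjusted p = 0.55). The call was also lost without mouse 14003-2 (-0.85, adjusted p = 0.0634). In wild type, at 30.3, 39.1 and 77.4 CPM without Cre, the change was -0.49 ± 0.24 (adjusted p = 0.0868). Gm26924 differed with Cre in the same libraries, at 1.60% to 7.60% without Cre in C201R and 8.01% to 43.3% with it. Since these ranges do not overlap, the fit with the covariate cannot tell its part from that of Cre. The part of Gm26924 in the lower Gatsl2 and Rptor levels was thus not tested.

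The remaining members were not called between pulldowns with and without Cre. Mtor had medians of 34.4 CPM in wild type and 36.3 CPM in C201R without Cre, and changes of -0.18 ± 0.21 and -0.05 ± 0.23 (edgeR adjusted p = 0.464 and 0.87). Tsc2 had medians of 23.3 and 20.9 CPM without Cre, and changes of -0.35 ± 0.20 and -0.23 ± 0.29 (adjusted p = 0.139 and 0.511). With library totals both genes had positive changes in both genotypes, from 0.34 to 0.77, and Mtor was then called in wild type (0.77, adjusted p = 0.0374), so no direction can be given. Eif4ebp1 had 0 counts in 4 of 6 wild-type libraries and 1 of 6 C201R libraries without Cre, each of which allows at most 0.24 to 0.44 CPM. It was tested in C201R alone, at 1.34 ± 0.76 (adjusted p = 0.14). Gatsl3 reached 4.84 CPM in wild type without Cre, where its change with Cre was -1.76 ± 0.82 (adjusted p = 0.0738).

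The wider pathway was followed through 7 lists that hold 71 further genes found in the files. Between the genotypes with Cre, 1 of the 69 tested was higher, 1 was lower and 67 were not called, against 2.29% and 1.82% of all genes tested, and their median log2 change was -0.06. The share of pathway genes called was thus near the background. The higher gene was Lars, leucyl-tRNA synthetase, which charges leucine to its tRNA and has also been described as a leucine sensor for mTORC1. Its CPM was 39.6 in the lowest C201R library, 49.2 at the median and 119.8 in the highest, against 20.2, 24.4 and 29.8 in wild type, and the groups did not overlap. Lars changed by 1.17 ± 0.24 on the log2 scale (edgeR adjusted p = 0.0165). It was called in 17 of 22 alternatives. The call was lost without mouse 14703-4 (1.19, adjusted p = 0.0507), without mouse 14002-6 (1.01, adjusted p = 0.0603), with library totals, with the mouse number prefix as a block and with the Gm26924 covariate (0.75, adjusted p = 0.219). The amino acid sensor list, which holds 5 of the 10 members and Lars, had 2 called genes of 6 tested, Lars and the member Sesn2. Of all genes tested, 2.29% were called higher. The list was chosen with earlier results of these data known and Sesn2 is counted above already, so this is no test of the list.

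The lower gene was Rps6kb1, the S6 kinase that mTORC1 phosphorylates to promote translation. Its CPM was 12.9 in the lowest C201R library, 24.7 at the median and 41.0 in the highest, against 32.0, 54.5 and 67.7 in wild type. These ranges overlapped. Rps6kb1 changed by -0.92 ± 0.16 on the log2 scale (edgeR adjusted p = 0.0043). It was called in 19 of 22 alternatives, and not with library totals, without a covariate or with the mouse number prefix as a block (-0.73, adjusted p = 0.114). Its substrate Rps6, a ribosomal protein, had a change of 0.71 ± 0.20 (adjusted p = 0.0635), and the cap-binding protein gene Eif4e one of 0.30 ± 0.11 (adjusted p = 0.129). The list of genes downstream of mTORC1 had 1 called gene of 17 tested.

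The other 5 lists held no called gene between the genotypes with Cre. Their medians lay between -0.21, for 14 upstream kinases and stress inputs, and 0.22, for the 5 genes of the TSC complex and Rheb. Among the most abundant per length, Rheb had a change of 0.33 ± 0.16 (edgeR adjusted p = 0.278) and Tbc1d7, a TSC complex subunit, one of -0.35 ± 0.26. Lamtor2 and Lamtor5, subunits of the Ragulator that anchors Rag GTPases to the lysosome, had changes of 0.59 ± 0.22 and 0.24 ± 0.13 (adjusted p = 0.154 and 0.324). Sec13 of GATOR2 was at 0.60 ± 0.21 (adjusted p = 0.12) and Nprl2 of GATOR1 at 0.39 ± 0.33. Pdpk1, a kinase of the insulin branch, was at -0.29 ± 0.16, and Mapkap1, a subunit of mTORC2, at -0.05 ± 0.21.

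**Figure D5:**
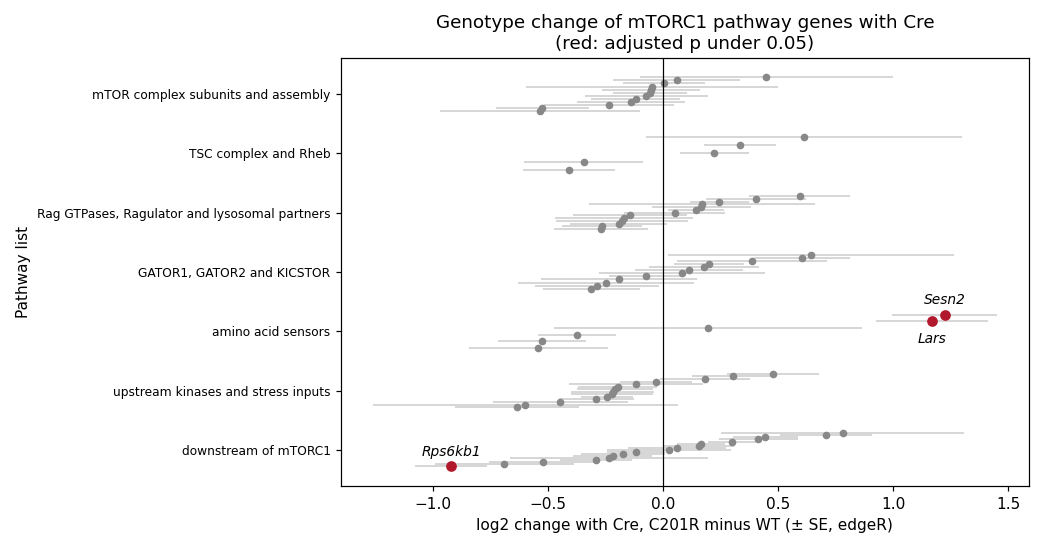
Log2 change with Cre, C201R minus wild type, of each tested gene of the 7 pathway lists (points, with the edgeR standard error as a line), the 10 members included. Sesn2 (1.22) and Lars (1.17) among the amino acid sensors and Rps6kb1 (-0.92) among the genes downstream of mTORC1 are the 3 genes in red, with an adjusted p under 0.05.

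Of 68 further pathway genes tested in each genotype, wild type had 33 higher and 15 lower with Cre, against 27.7% and 32.8% of all genes tested, and C201R had 32 higher and 11 lower, against 30.5% and 26.3%. With library totals in place of TMM these counts were 51 and 5 in wild type and 42 and 4 in C201R, in the same direction as the shift over all genes. The Rag GTPase and Ragulator list had 9 of 13 genes higher in each genotype, with median log2 changes of 1.08 in wild type and 1.66 in C201R. Lamtor2 had changes of 1.47 ± 0.29 and 2.12 ± 0.37 (edgeR adjusted p = 0.000446 and 0.000126). Rheb rose by 1.56 ± 0.19 in wild type and 2.10 ± 0.20 in C201R (adjusted p = 5.67e-06 and 1.57e-07). The mTOR complex list had 1 of 12 genes higher and 5 lower in wild type, and 2 higher and 5 lower in C201R, beside the same shares of all genes. Library totals turned these counts to 6 higher and 2 lower in wild type and 3 higher and 1 lower in C201R, so no direction can be given for this list, and the difference between the lists was not tested.

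Across the 24 libraries the genes most like each member were ranked by Pearson's r of log2(CPM + 1) over 11241 genes. The 24 points share 4 groups, library scaling and depth, so these values describe the libraries and carry no test. Sesn2 was most like Tcea1 (r = 0.89), Mthfd2 (0.88) and Hax1 (0.87). Sesn3 was most like Prkaa1 (0.94), a catalytic subunit of AMPK, and then Hmga1 and Golga3 (both 0.92). For Sesn1 the values were lower, with Klf15 (0.79), Tfdp2 (0.79) and Spata13 (0.77) first. Gatsl2 was most like Slc24a2, Tmod2 (both 0.94) and Srgap3 (0.93), and Rptor most like Nrxn3 (0.87), Srcap and Pacs2 (both 0.84). Ddit4 came nearest to Trmt1l, Madd and Luc7l (each 0.82), Tsc2 to Tmem63b and Crat (both 0.84) and Pikfyve (0.83), and Mtor to Nup214 (0.76), Abca7 (0.75) and Fbxo18 (0.74). Sesn2 was not among the 3 genes most like any other member, and no member was among those of Sesn2.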

How the data were processed

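Ribosome-associated RNA from 24 spinal cord pulldowns was read from 1 deposited table per mouse. The authors deposited expected counts, TPM and effective length for every gene. The tools were RSEM 1.2.12 and Bowtie2 2.2.0, according to the submitters' processing notes. Which genome build and annotation were used is not given in the sources used here. No 2 libraries held identical values. Promoter sequences are RefSeq's, for GRCm38.p6, matched by symbol for 9 of the 10 members. Of 38924 gene identifiers, 37607 matched the gene names at hand.

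Expected counts were rounded to whole numbers. Low genes were removed with filterByExpr, TMM factors were applied, and all remaining genes were tested with edgeR 4.0.16 (R 4.3.3, robust quasi-likelihood F test). Library series was a covariate (7 libraries in series 1, 17 in series 2). Each comparison of 2 groups used its own 12 libraries, and the interaction all 24. An SE is the absolute log2 change over the square root of F. Called means a Benjamini-Hochberg adjusted p under 0.05. TPM was used as deposited, scaled to the total of each library and without TMM factors. Levels per kb divide CPM by the deposited effective length. RSEM divides reads between near-identical genes, so such values are uncertain, and strand use in counting was not stated.

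Alternatives were RLE scaling, library totals, DESeq2 1.42.0, limma-voom (limma 3.58.1), no filter, no covariate, the mouse number prefix as a block, the Gm26924 share as a covariate, series 2 alone, fits without mice 14003-1 and 14701-9, and the omission of 1 library at a time. The mouse number prefix replaced library series in its fit, whereas the Gm26924 share was added beside library series. The fit was tested on simulated data. Named genes are the 10 members, the label checks, each pathway list's called genes and 2 most abundant uncalled genes per length, and the 3 genes most like each member with a mean of at least 1 CPM. Of the genes this rule names, 1 is not reported here. Chodl was named after its value was seen. The members and lists were chosen with earlier results of these data known. The labels do not give the sex of the mice. The p-values weigh each change against the spread between libraries, 1 per mouse.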

Additional observations from a re-analysis of the deposited data

Results flagged for a closer look

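Outlying libraries were sought with Dixon's test on log2(CPM + 1) at the 95% level (critical value 0.625 for 6 libraries). In 5 of the 40 sets formed by a member and a group, the highest or lowest library stood far from the rest. The flags depend on this scale, and the levels below are given in CPM. Chance alone does this in about 1 in 20 such sets. Mouse 14701-9, wild type with Cre, was low for Mtor at 23.92 CPM and for Gatsl2 at 12.055 CPM. Mouse 14003-1, C201R with Cre, was low for Sesn3 at 13.064 CPM. These are the libraries with the highest mitochondrial shares among pulldowns with Cre, 17.1% and 15.8%, and their Gm26924 shares were 30.8% and 43.3%. Mouse 14004-7, C201R without Cre, was low for Tsc2 at 9.267 CPM, and mouse 14004-6, wild type with Cre, was low for Gatsl3 at 0.194 CPM. None of the outlying libraries was one for Sesn2, Sesn1 or Ddit4.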

How the results depend on the processing

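The number of genes called between the genotypes with Cre was 32 with library totals (24 higher, 8 lower), 1344 with DESeq2, 2004 with limma-voom, 291 without covariate, 122 with the Gm26924 share as a covariate, 75 with a replicate block by mouse number prefix, 1370 in series 2 alone and 1950 without mice 14003-1 and 14701-9. Leaving out 1 library at a time gave 170 (without mouse 14703-4) to 936 (without mouse 14003-1), and 9 of the 12 moved it by over 1.5 times: those 2, C201R mice 14004-2 and 14003-4, and wild-type mice 14002-6, 14004-6, 14702-3, 14703-5 and 14004-3. Without Cre, 2 genes were called by DESeq2, 1 by limma-voom, 6 without a filter and 1 with the block. With Cre against without it in C201R, 4602 genes were called with the Gm26924 share. The interaction called 1 gene with library totals, 115 with DESeq2, 79 with limma-voom, 6 with the block, 8 with the Gm26924 share, and 11 to 37 without 1 library. The labels give no pairing of mice between groups. In the block fit a prefix that holds mice of only 1 genotype adds nothing to the genotype comparison, and Sesn2 stayed called (1.51, adjusted p = 0.0315).

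The following signs turned in a called change or by more than 1 standard error, and the cause was not tested. Between genotypes, Gatsl2 turned to 0.0064 with Cre under the Gm26924 covariate, and Gatsl3 ranged from -0.64 to 0.62 without Cre as 1 library was left out (positive without mouse 14702-6). With Cre against without it in wild type, library totals gave 0.77 for Mtor, 0.20 for Rptor, 0.57 for Tsc2, 0.46 for Sesn1 and 0.48 for Gatsl2. Mtor there also turned to 0.35 with the Gm26924 covariate, 0.15 in series 2 alone, and ranged from -0.24 to 0.14 as 1 library was left out (positive without mouse 14701-1). In C201R, library totals gave 0.43 for Mtor and 0.34 for Tsc2, and the Gm26924 covariate 0.052 for Rptor, 0.34 for Tsc2 and 0.026 for Gatsl2. The interaction of Rptor was 0.026 with that covariate. Uncalled changes also turned sign by less than that, among them Sesn2 without Cre (0.20 without mouse 14702-1), Gatsl3 with Cre (-0.43 without mouse 14701-5), Rptor with Cre (0.025 with the Gm26924 covariate) and without Cre (-0.031 without mouse 14702-9), Gatsl2 without Cre, Mtor in C201R, and the interactions of Ddit4 (-0.24 without mouse 14702-6), Mtor, Tsc2, Eif4ebp1 and Gatsl3. Low counts limit Eif4ebp1 and Gatsl3.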
